A study of Rattus norvegicus with 9 samples.

Results

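The genes described here encode enzymes that make NAD from tryptophan or from recycled nicotinamide, measured in rat kidneys after repeated dosing with colistin methanesulfonate (CMS), a form of colistin, an antibiotic of the polymyxin class, that is converted to colistin in the body. The set was given as 9 gene symbols (Acmsd, Aadat, Kmo, Haao, Qprt, Kynu, Nadsyn1, Nampt and Nmnat1), and a probe set counted where the platform annotation named exactly 1 gene from the set. All 9 genes had such a probe set, 11 in all, and each of the 9 was among the 10337 genes tested, out of 14217 genes with a probe set of 1 gene. The 9 animals were Sprague-Dawley rats, an outbred stock, bought at 8 weeks of age and acclimated for 1 week. They received daily intraperitoneal injections for 7 days: the vehicle group 0 mg/kg of CMS in saline, the CMS25 group 25 mg/kg and the CMS50 group 50 mg/kg, with 3 rats and 3 arrays per group. According to the labels, the vehicle kidneys were free of lesions, CMS25 kidneys had dilated tubules and tubular basophilia, and CMS50 kidneys had casts, degenerating tubules and necrosis. RNA came from the whole right kidney, so every value is an average over all cell types of the organ. Values are log2 expression after robust multi-array averaging (RMA), group values are means ± SD with n = 3, and a change is a difference of log2 values with its standard error (SE).

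The kidney is, with the liver, a main site of NAD synthesis from tryptophan, and proximal tubule cells carry much of it. In this kynurenine pathway, tryptophan is opened to formylkynurenine and then kynurenine. Kmo (kynurenine 3-monooxygenase), Kynu (kynureninase) and Haao (3-hydroxyanthranilate 3,4-dioxygenase) carry kynurenine on to an unstable semialdehyde that closes to quinolinate, and Qprt (quinolinate phosphoribosyltransferase) turns quinolinate into nicotinate mononucleotide. Acmsd takes the same semialdehyde out of the route, toward glutarate and acetyl-CoA, and Aadat, also known as kynurenine aminotransferase II, turns kynurenine into kynurenate. Nampt starts the recycling of nicotinamide. Nmnat1, the nuclear adenylyltransferase, serves the recycling and the tryptophan routes, and Nadsyn1 amidates the last intermediate of the tryptophan route to NAD.

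Promoter sequence was held in RefSeq's table (rat assembly GRCr8, 250 bases before to 50 after each start) for 7 of the 9 genes, all except Acmsd and Nampt, and is shown for enzymes whose RNA levels were lower in CMS50 kidneys and for Aadat. Letters found in many HNF4 motifs (CAAAGT or its complement ACTTTG) and many HNF1 motifs (GTTAAT or ATTAAC) were searched on both strands, since these factors are known to act on proximal tubule genes. The HNF4 letters were found in 2 of the 7 promoters, Kmo and Aadat, and in 14.8% of all 33469 promoters of the same length. The HNF1 letters were found in 0 of the 7 and in 7.45% of all. A match describes the sequence and is no evidence of a bound site. Other forms of these motifs were not searched, so a promoter without a match may still hold one. The stretches of 30 bases around the matches are given with the match in capitals, and for Haao and Kynu, which held neither, the 250 bases before the start are given. The listed start of Kmo and of Aadat lies inside the span of its gene, so other starts exist.
Kmo, chr13:90089438-90089467, plus strand: caagctgattggACTTTGggcttctagtga
Aadat, chr16:34555241-34555270, minus strand: ctcggtggatgaACTTTGtcccttctgtcg
Haao, chr6:16598075-16598324, plus strand: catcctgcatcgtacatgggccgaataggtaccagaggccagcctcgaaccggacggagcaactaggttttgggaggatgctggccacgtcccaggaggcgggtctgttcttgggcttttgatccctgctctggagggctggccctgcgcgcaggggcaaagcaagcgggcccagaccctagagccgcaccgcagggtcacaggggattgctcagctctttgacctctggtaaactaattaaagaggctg
Kynu, chr3:48188036-48188285, plus strand: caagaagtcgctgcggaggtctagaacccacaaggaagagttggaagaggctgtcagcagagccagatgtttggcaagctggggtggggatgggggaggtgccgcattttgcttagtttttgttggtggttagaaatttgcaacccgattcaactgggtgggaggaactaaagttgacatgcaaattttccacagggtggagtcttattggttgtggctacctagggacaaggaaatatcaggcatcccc

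Before the comparisons, 3 arrays have to be named. Vehicle replicate 1 carried RNA of hepatocyte genes that were dim in the other 8 arrays. Albumin (Alb) was at 10.48 there and between 3.69 and 5.29 elsewhere, transthyretin (Ttr) at 8.94 against 4.85 to 5.94, and the mean over 6 hepatocyte markers was 7.26 against 4.06 to 4.63. The liver also uses the kynurenine pathway, and Tdo2, the tryptophan dioxygenase of the liver, was at 5.08 in vehicle replicate 1 and between 3.02 and 3.69 in the other arrays. CMS25 replicate 1 had raised RNA of some adipose genes, with perilipin (Plin1) at 6.52 against 3.29 to 3.56 and adipsin (Cfd) at 8.01 against 3.95 to 6.06. Adipoq was at 7.44 against 5.27 to 6.65. The other adipose markers were not raised there, with Lep at 3.81 against 3.50 to 4.07 and Cidec at 8.89 against 7.63 to 9.90. CMS50 replicate 3 lay nearer to the vehicle arrays than the other CMS50 arrays did. Its mean over 10 tubular injury markers was 9.64, against 10.21 and 10.53 in the other CMS50 arrays and 7.43 to 7.98 in vehicle. Kidney markers were present in every array: the mean over 28 proximal tubule markers ran from 11.41 to 11.56 in vehicle, 11.43 to 11.69 in CMS25 and 11.07 to 11.44 in CMS50. Markers of the adrenal cortex, which lies beside the kidney, were all dim, with means over 4 genes between 4.03 and 4.41. RNA quality was read from beta-actin as the log2 level of its 3′ control probe set minus that of its 5′ one, which was 2.98 ± 0.16 in vehicle, 3.17 ± 0.12 in CMS25 and 3.58 ± 0.09 in CMS50 (CMS50 and vehicle differed with p = 0.1 in a two-sided exact permutation test, the smallest p possible with 3 arrays each). The same reading from GAPDH was 0.54 ± 0.03 in vehicle, 0.70 ± 0.21 in CMS25 and 0.82 ± 0.06 in CMS50 (p = 0.1 for CMS50 and vehicle in the same permutation test). The part of RNA quality in the results was not tested.

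**Figure D1:**
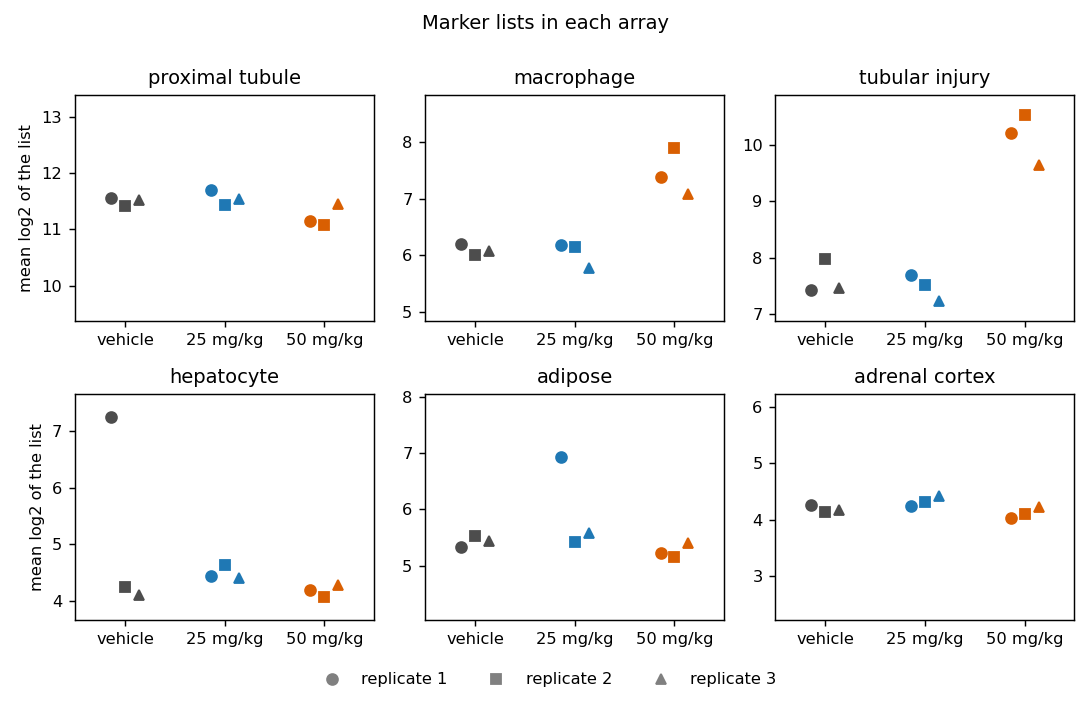
Mean log2 expression over each list of marker genes (vertical axis, the same span of 4 log2 units in every panel) in each of 9 arrays, grouped by dose (horizontal axis) with marker shape for the replicate. Vehicle replicate 1 stands apart for hepatocyte genes at 7.26, CMS25 replicate 1 for adipose genes at 6.93, and the CMS50 arrays for macrophage and injury genes.

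How these genes stood after 50 mg/kg was asked first. In CMS50 kidneys the enzymes that carry kynurenine toward quinolinate, Kmo, Kynu and Haao, were lower than in vehicle kidneys, and so was Acmsd, the enzyme that takes the pathway's intermediate away from NAD. Acmsd was 3.29-fold lower, Kmo 2.05-fold, Haao 1.88-fold and Kynu 1.87-fold. The other 5 genes, Qprt, Aadat, Nampt, Nmnat1 and Nadsyn1, did not pass the test. In all, 4 of 9 genes were called (limma, Benjamini-Hochberg adjusted p under 0.05 over all genes tested), all 4 lower and 0 higher. Over all 10337 genes, 31.1% were called, 11.4% lower and 19.6% higher, which is the background for this count. The median change was -0.47 over the 9 genes and 0.05 over all genes, and 8 of the 9 changes were negative. The CMS50 and vehicle arrays did not overlap for the 4 called genes, and they did not overlap for 49.6% of all genes tested. In bulk RNA, fewer cells of a type and less RNA per cell cannot be told apart. Of 27 proximal tubule markers tested, 10 fell and 3 rose, with a median change of -0.04, from -3.57 for the amino acid transporter Slc7a12 to 1.26 for the cystine transporter subunit Slc7a9. Without vehicle replicate 1, 5 of these markers fell and 2 rose, and with CMS25 replicate 1 left out as well 5 fell and 4 rose. Both fits had fewer arrays. Over all genes, 3211 were called with all 9 arrays, 2154 without vehicle replicate 1 and 1973 with both left out. Of 13 macrophage markers tested, 12 rose and 0 fell, with Mrc1, the mannose receptor, at 2.74 and Fcgr3a at 0.21 (adjusted p = 0.477 in limma), and the mean over 15 macrophage markers was 7.09 to 7.90 in CMS50 against 6.01 to 6.20 in vehicle. Of the other kidney lists, 4 of 6 markers of the loop of Henle and distal tubule fell (Egf at -2.04, while Slc12a3 was at -0.15), 2 of 6 of the collecting duct (Slc4a1 at -1.67, while Scnn1b was at 0.07) and 2 of 4 of the podocyte (Wt1 at -1.36, while Podxl was at -0.50), with 0 rises. Without vehicle replicate 1 these falls were 2 of 6, 1 of 6 and 1 of 4. Of 10 tubular injury markers 7 rose and 0 fell, from Krt19 at -0.29 to Havcr1, the kidney injury molecule, at 6.32. Havcr1 also reached the mean of 5 only through CMS50, with group means of 4.83 in vehicle, 4.15 in CMS25 and 11.15 in CMS50. Of 3 adipose markers tested Cidec fell (-1.38) and Cfd was at 1.41, and of 2 hepatocyte markers 0 were called, with Ttr at -1.35 and Apob at -0.42. The part of these shifts in the changes of the NAD genes was not tested.

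**Figure D2:**
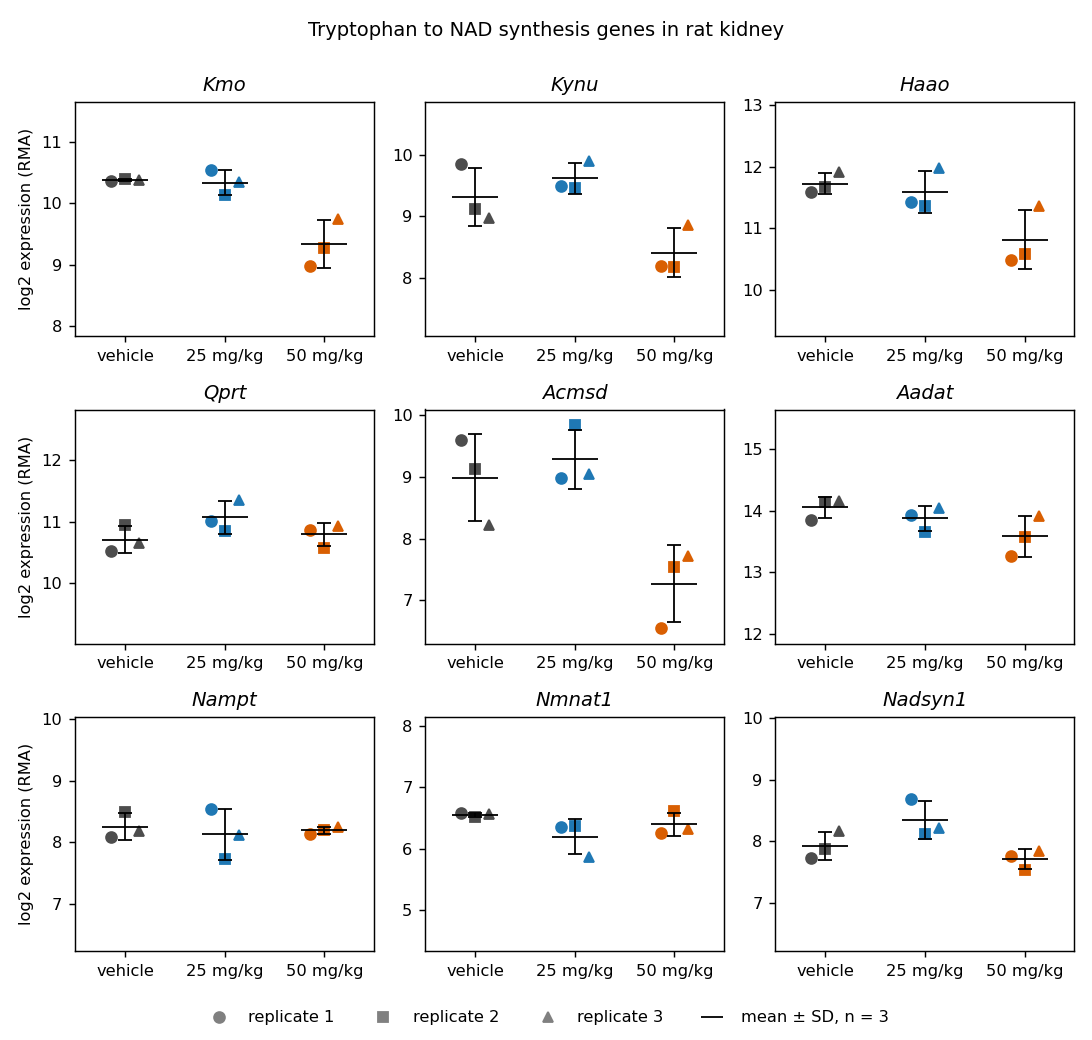
Log2 expression (vertical axis, the same span of 3.8 log2 units in every panel) of the 9 genes in each array, grouped by dose (horizontal axis). Symbols are the arrays with a shape for each replicate, and bars are the mean ± SD of 3 arrays. For Kmo, Kynu, Haao and Acmsd every CMS50 array lies below every vehicle and every CMS25 array.

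Kmo, which hydroxylates kynurenine at the outer mitochondrial membrane, had the tightest vehicle group. Its values were 10.36, 10.40 and 10.38 in the vehicle arrays (replicates 1, 2 and 3), 10.53, 10.13 and 10.34 in CMS25 and 8.99, 9.28 and 9.75 in CMS50. The CMS50 arrays all lay below the other 6, and replicate 3 was the closest to them. The change was -1.04 (SE 0.18, 95% interval -1.44 to -0.63, adjusted p = 0.00456 in limma), with means of 9.34 ± 0.39 and 10.38 ± 0.021. It passed the test in all 20 alternatives, with changes from -1.24 to -0.86. Without vehicle replicate 1, the array with liver RNA, it was -1.05 (adjusted p = 0.0165).

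Kynu, which cleaves hydroxykynurenine to hydroxyanthranilate, followed with less separation. Its vehicle values were 9.85, 9.12 and 8.97, those of CMS25 9.49, 9.45 and 9.90, and those of CMS50 8.19, 8.17 and 8.86. The highest vehicle value belonged to the array with liver RNA. The lowest vehicle array and the highest CMS50 array lay close together, and the groups did not overlap. The change was -0.90 (SE 0.26, adjusted p = 0.0294 in limma). It was -0.63 without vehicle replicate 1 (adjusted p = 0.0797 in limma) and -0.999 without vehicle replicate 2 (adjusted p = 0.0526). It was -0.79 without CMS50 replicate 1 and -0.78 without CMS50 replicate 2 (adjusted p = 0.101 for each). The call was lost in each of these fits, which also had fewer arrays. Over all genes, 1852 were called without vehicle replicate 2 and 3211 with all 9 arrays.

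Haao, the dioxygenase that opens the ring of hydroxyanthranilate, was measured at 11.58, 11.68 and 11.92 in vehicle, 11.43, 11.37 and 11.97 in CMS25 and 10.49, 10.58 and 11.36 in CMS50. CMS50 replicate 3 lay next to the lowest CMS25 array and the other CMS50 arrays well below both groups. The change was -0.91 (SE 0.24, adjusted p = 0.0211 in limma). Leaving out vehicle replicate 1 gave -0.99 (adjusted p = 0.0419) and leaving out CMS50 replicate 3 gave -1.19 (adjusted p = 0.00244). The call was lost without vehicle replicate 2 (-0.94, adjusted p = 0.0546), vehicle replicate 3 (-0.82, 0.0692), CMS50 replicate 1 (-0.75, 0.0796) or CMS50 replicate 2 (-0.80, 0.0771).

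Acmsd had the widest spread and the biggest difference of the 9 genes. It was at 9.60, 9.14 and 8.22 in vehicle, 8.98, 9.84 and 9.05 in CMS25, and 6.55, 7.53 and 7.72 in CMS50. All CMS50 arrays were below the lowest vehicle array, and within the vehicle group the array with liver RNA was the highest. That array was also the highest of the vehicle group for Kynu and Nmnat1. For Kmo, Haao, Aadat, Qprt, Nadsyn1 and Nampt it was the lowest. The change of Acmsd was -1.72 (SE 0.41, 95% interval -2.64 to -0.80, adjusted p = 0.0142 in limma). It was -1.41 without vehicle replicate 1 (adjusted p = 0.0472), and -1.36 without CMS50 replicate 1, where the call was lost (adjusted p = 0.0516). With vehicle replicate 1 and CMS25 replicate 1 both left out, the calls of Acmsd (adjusted p = 0.0585), Haao (0.0544) and Kynu (0.0984) were lost in limma while that of Kmo was not (0.0224).

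The CMS50 arrays differed from each other in these 4 genes. As a log2 difference from the vehicle mean, CMS50 replicate 3 was at -1.26 for Acmsd, -0.63 for Kmo, -0.36 for Haao and -0.45 for Kynu. In the same order, CMS50 replicate 1 was at -2.44, -1.39, -1.24 and -1.12, and CMS50 replicate 2 at -1.45, -1.10, -1.14 and -1.14. Replicate 3 was the least changed of the 3 for each of the 4 genes, and it also had the highest proximal tubule mean (11.44 against 11.15 and 11.07) and the lowest injury mean of the CMS50 arrays. Whether these go together was not tested.

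Aadat, the kynurenine aminotransferase, was at 13.86, 14.15 and 14.16 in vehicle, 13.93, 13.65 and 14.05 in CMS25 and 13.26, 13.57 and 13.92 in CMS50. CMS50 replicate 3 overlapped the vehicle range. The change of -0.47 (SE 0.18, 95% interval -0.87 to -0.08) missed the threshold (adjusted p = 0.0688 in limma). It passed without CMS50 replicate 3 (-0.64, adjusted p = 0.0168), with array weights (-0.56, 0.0175) and with the replicate number as a block (-0.47, 0.0452), and its adjusted p ran up to 0.221 in the other alternatives.

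Qprt, which commits quinolinate to NAD, was not called. It was at 10.52, 10.95 and 10.65 in vehicle, 11.01, 10.84 and 11.36 in CMS25 and 10.87, 10.58 and 10.93 in CMS50, and the vehicle and CMS50 arrays overlapped. The change was 0.09 (95% interval -0.28 to 0.46, adjusted p = 0.719 in limma), so a fall as large as that of Kmo lies outside the interval. Its dimmer probe set, not used in the main test, changed by -0.27 (95% interval -0.54 to 0.00, adjusted p = 0.159 in limma over every probe set), with vehicle values of 6.36 to 6.44 and CMS50 values of 5.95 to 6.23 that did not overlap. The probe sets thus differed in sign, and neither passed the test.

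The recycling enzyme Nampt was at 8.08, 8.50 and 8.18 in vehicle, 8.54, 7.72 and 8.12 in CMS25, and 8.14, 8.20 and 8.25 in CMS50. The CMS50 arrays lay inside the vehicle range, and the change was -0.06 (95% interval -0.49 to 0.37, adjusted p = 0.844 in limma). A further Nampt probe set, with a mean of 3.84, was below the intensity minimum of 5. Nmnat1 was at 6.58, 6.51 and 6.57 in vehicle, 6.36, 6.37 and 5.86 in CMS25 and 6.25, 6.61 and 6.33 in CMS50, a change of -0.16 (95% interval -0.49 to 0.18, adjusted p = 0.455 in limma). Nadsyn1 was at 7.73, 7.88 and 8.17 in vehicle, 8.69, 8.12 and 8.22 in CMS25 and 7.76, 7.54 and 7.84 in CMS50, a change of -0.21 (95% interval -0.60 to 0.17, adjusted p = 0.366 in limma). For Nmnat1 and Nadsyn1 the CMS50 and vehicle arrays overlapped. The intervals of Nampt, Nmnat1 and Nadsyn1 hold modest changes in either direction.

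The next comparison asked whether the lower dose, which the labels give with milder lesions, moved the same genes. Of the 9 genes, 0 were called in CMS25 against vehicle, and over all genes 0% were called in either direction (0 of 10337 with limma, against 604 at an unadjusted p under 0.05). Of the 9 changes 5 were negative, with a median of -0.04 over the 9 genes and -0.02 over all genes. The largest positive difference was that of Nadsyn1, at 0.42 (95% interval 0.04 to 0.80, adjusted p = 0.792 in limma). It was 0.25 without CMS25 replicate 1, the array with some raised adipose genes and the highest Nadsyn1 value. Qprt differed by 0.37 (95% interval -0.01 to 0.74, adjusted p = 0.843), Acmsd by 0.30 (-0.62 to 1.22, adjusted p = 0.955) and Kynu by 0.30 (-0.29 to 0.89, adjusted p = 0.911). Nmnat1 was the most negative at -0.35 (-0.69 to -0.02, adjusted p = 0.802), and its CMS25 arrays all lay below its vehicle arrays, 1 of 9 genes without overlap against 12.1% of all genes tested. Kmo differed by -0.04 (-0.45 to 0.36, adjusted p = 0.988) and Haao by -0.14 (-0.68 to 0.41, adjusted p = 0.966), each with overlapping arrays.

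Between the doses, CMS50 kidneys had less RNA than CMS25 kidneys of the same 4 genes and of Nadsyn1, which completes NAD. Of 9 genes 5 were called lower and 0 higher, against 30.3% of all genes called, 9.43% lower and 20.8% higher. The comparison shares its CMS50 arrays with the comparison above. The arrays of the doses did not overlap for the 5 called genes and for 45.7% of all genes tested. Acmsd was 4.06-fold lower (change -2.02, SE 0.41, 95% interval -2.94 to -1.10, adjusted p = 0.00793 in limma), Kynu 2.30-fold lower (-1.20, SE 0.26, adjusted p = 0.0104) and Kmo 1.99-fold lower (-0.996, SE 0.18, adjusted p = 0.0052). These 3 passed in all 20 alternatives. Haao changed by -0.78 (SE 0.24, adjusted p = 0.0386 in limma), but its call was lost in 9 alternatives (adjusted p up to 0.129). They include those without each vehicle array, CMS25 replicates 1 and 3 and CMS50 replicates 1 and 2. Where the call was lost, the change ran from -0.86 to -0.59. Without CMS50 replicate 3, where the call held, it was -1.05. Nadsyn1 changed by -0.63 (SE 0.17, 95% interval -1.02 to -0.25, adjusted p = 0.0226), with every CMS50 array below every CMS25 array. Its call was lost without CMS25 replicate 1 (-0.46, adjusted p = 0.0529), CMS50 replicate 1 (-0.66, 0.0575) or CMS50 replicate 2 (-0.55, 0.0833). It was also lost with vehicle replicate 1 and CMS25 replicate 1 both left out (-0.46, adjusted p = 0.0528 in limma). For Nadsyn1 the order of the group means was CMS25, vehicle, CMS50, and neither neighbouring pair in that order passed the test. Qprt (-0.28, adjusted p = 0.220), Aadat (-0.29, 0.228), Nmnat1 (0.20, 0.333) and Nampt (0.07, 0.802) were not called.

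**Figure D3:**
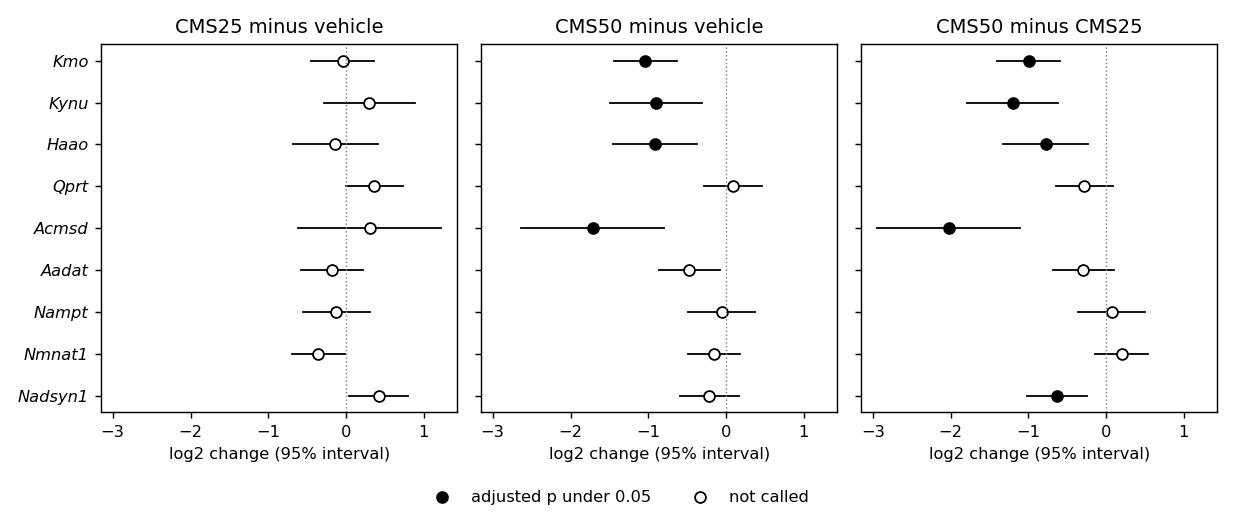
Change in log2 expression with its 95% interval (horizontal axis) for each of the 9 genes (vertical axis) in the 3 comparisons, where CMS25 and CMS50 are the groups given 25 and 50 mg/kg. Filled points passed the test: none in CMS25 minus vehicle, 4 in CMS50 minus vehicle and 5 in CMS50 minus CMS25, all lower.

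Genes at other steps of NAD metabolism were read from lists. In CMS50 against vehicle, 31.1% of all 10337 genes tested were called, 11.4% lower and 19.6% higher. These shares are the background for the counts of every list below with all 9 arrays. Fits with arrays left out had other backgrounds. Without vehicle replicate 1, 2154 of all genes were called, and without CMS50 replicate 3, 3546. With vehicle replicate 1 and CMS25 replicate 1 both left out, 1973 were called. Of 9 other gene symbols listed for the kynurenine pathway, older symbols of the same genes included, 6 had a probe set here and 4 were tested. Of these 2 fell and 0 rose in CMS50 against vehicle, with a median change of -0.27. Afmid, the formamidase that releases kynurenine, fell from 9.37 ± 0.09 to 8.23 ± 0.25 (change -1.14, SE 0.14, adjusted p = 0.00181 in limma), and passed in all 20 alternatives. Kyat3, an aminotransferase that makes kynurenate, fell by 0.50 (SE 0.12, adjusted p = 0.0151), a call lost without CMS50 replicate 1 or 2 or with both vehicle replicate 1 and CMS25 replicate 1 left out (adjusted p up to 0.0593). Its relative Kyat1 was at -0.05 (adjusted p = 0.790) and Got2 at 0.21 (adjusted p = 0.140). The dioxygenases that start the pathway were below the intensity minimum: Tdo2 as given above, and Ido1 between 3.54 and 4.15 in every array.

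On the branch that begins with Acmsd, all 3 tested genes fell. Dhtkd1, the 2-oxoadipate dehydrogenase subunit, fell from 10.50 ± 0.017 to 9.59 ± 0.41 (change -0.90, SE 0.18, adjusted p = 0.00789 in limma). Acat1, the mitochondrial acetoacetyl-CoA thiolase, fell by 0.70 (SE 0.11, adjusted p = 0.00361) and Gcdh, glutaryl-CoA dehydrogenase, by 0.50 (SE 0.14, adjusted p = 0.0296). Dhtkd1 and Acat1 passed in all 20 alternatives. The call of Gcdh was lost when CMS25 was kept out of the fit, and also without vehicle replicate 1, 2 or 3 or CMS50 replicate 1 or 2. It was lost as well with vehicle replicate 1 and CMS25 replicate 1 both left out. Over all 20 alternatives the change of Gcdh ran from -0.69 to -0.40, with adjusted p up to 0.106 in limma. These enzymes also serve lysine, tryptophan and ketone body metabolism.

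Other salvage and NADP enzymes had 3 falls and 0 rises among 8 tested. Nmrk1, which phosphorylates nicotinamide riboside, fell from 8.38 ± 0.16 to 7.04 ± 0.62 (change -1.34, SE 0.28, adjusted p = 0.00853 in limma), and Nadk2, the mitochondrial NAD kinase, fell by 0.61 (SE 0.14, adjusted p = 0.0116). Both passed in all 20 alternatives. Nudt12, which hydrolyses NADH, fell by 0.82 (SE 0.23, adjusted p = 0.0238 in limma), a call lost without vehicle replicate 1, 2 or 3 or CMS50 replicate 1 or 2. Its call was also lost with vehicle replicate 1 and CMS25 replicate 1 both left out. Over all 20 alternatives its change ran from -1.12 to -0.60, with adjusted p up to 0.0805. Naprt, which takes up nicotinate into the pathway, was at -0.06 (adjusted p = 0.707), and Nmnat3, the mitochondrial counterpart of Nmnat1, at 0.43 (adjusted p = 0.0834). With both vehicle replicate 1 and CMS25 replicate 1 left out, 2 genes of the list fell and Nmnat3 rose.

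Enzymes that consume NAD showed 5 rises and 1 fall among 14 tested, with a median change of -0.01. Over all genes tested, 19.6% were called higher and 11.4% lower. Parp1 and Parp2, the polymerases activated by DNA breaks, rose by 0.55 (SE 0.12, adjusted p = 0.00902 in limma) and 0.50 (SE 0.11, adjusted p = 0.0116). Parp14 rose by 1.12 (SE 0.18, adjusted p = 0.00363) and Parp9 by 1.05 (SE 0.20, adjusted p = 0.00674), members of the same family that are induced by interferon. The nuclear sirtuin Sirt6 rose by 0.46 (SE 0.08, adjusted p = 0.00502), and the mitochondrial sirtuin Sirt3 fell by 0.40 (SE 0.11, adjusted p = 0.0291). The call of Sirt3 was lost without vehicle replicate 1 or 3 or CMS50 replicate 1 or 2 and with the replicate block. It was also lost with vehicle replicate 1 and CMS25 replicate 1 both left out. Over all 20 alternatives the change of Sirt3 ran from -0.49 to -0.34, with adjusted p up to 0.0991 in limma. Macrophage markers rose in the same arrays, as given above, and their part in these rises was not tested. Without vehicle replicate 1 the list had 5 rises and 0 falls, without CMS50 replicate 3 it had 6 and 2, and with vehicle replicate 1 and CMS25 replicate 1 both left out it had 4 and 0, Parp2 being lost (adjusted p = 0.0521).

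Of 6 transporters of tryptophan or nicotinate, 1 rose and 1 fell. Slc16a10, which carries aromatic amino acids, rose by 0.35 (SE 0.09, adjusted p = 0.0221 in limma), a call lost without vehicle replicate 1 or 3 or CMS50 replicate 2 or 3. It was also lost with vehicle replicate 1 and CMS25 replicate 1 both left out (adjusted p up to 0.0792 over these fits). Slc22a13, which carries nicotinate and urate, fell by 1.02 (SE 0.31, adjusted p = 0.0348 in limma) from 5.58 ± 0.71 to 4.56 ± 0.15. Its CMS25 mean was 5.02, and its mean over all arrays, 5.05, was just above the intensity minimum of 5. The CMS50 mean lay below that minimum, which limits what this fall can show. The call of Slc22a13 was lost with the replicate block (adjusted p = 0.0509) and without vehicle replicate 2 or 3 or any CMS50 array. Over the 19 alternatives that tested it, its change ran from -1.31 to -0.62, with adjusted p up to 0.0956. Without CMS50 replicate 3 the list had 0 calls, and with vehicle replicate 1 and CMS25 replicate 1 both left out it had 2 rises and 1 fall. Of 3 nicotinamide clearance genes 0 were called (adjusted p from 0.304 to 0.986 in limma, with Aox1 called when those 2 arrays were left out), and of 5 tested regulators 0 were called, with Ppargc1a, a coactivator of NAD synthesis genes in mouse kidney, at -0.05 (SE 0.13, adjusted p = 0.794) and Hnf4a at -0.22 (SE 0.11, adjusted p = 0.166). In CMS25 against vehicle, 0 genes of these 7 lists were called.

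**Figure D4:**
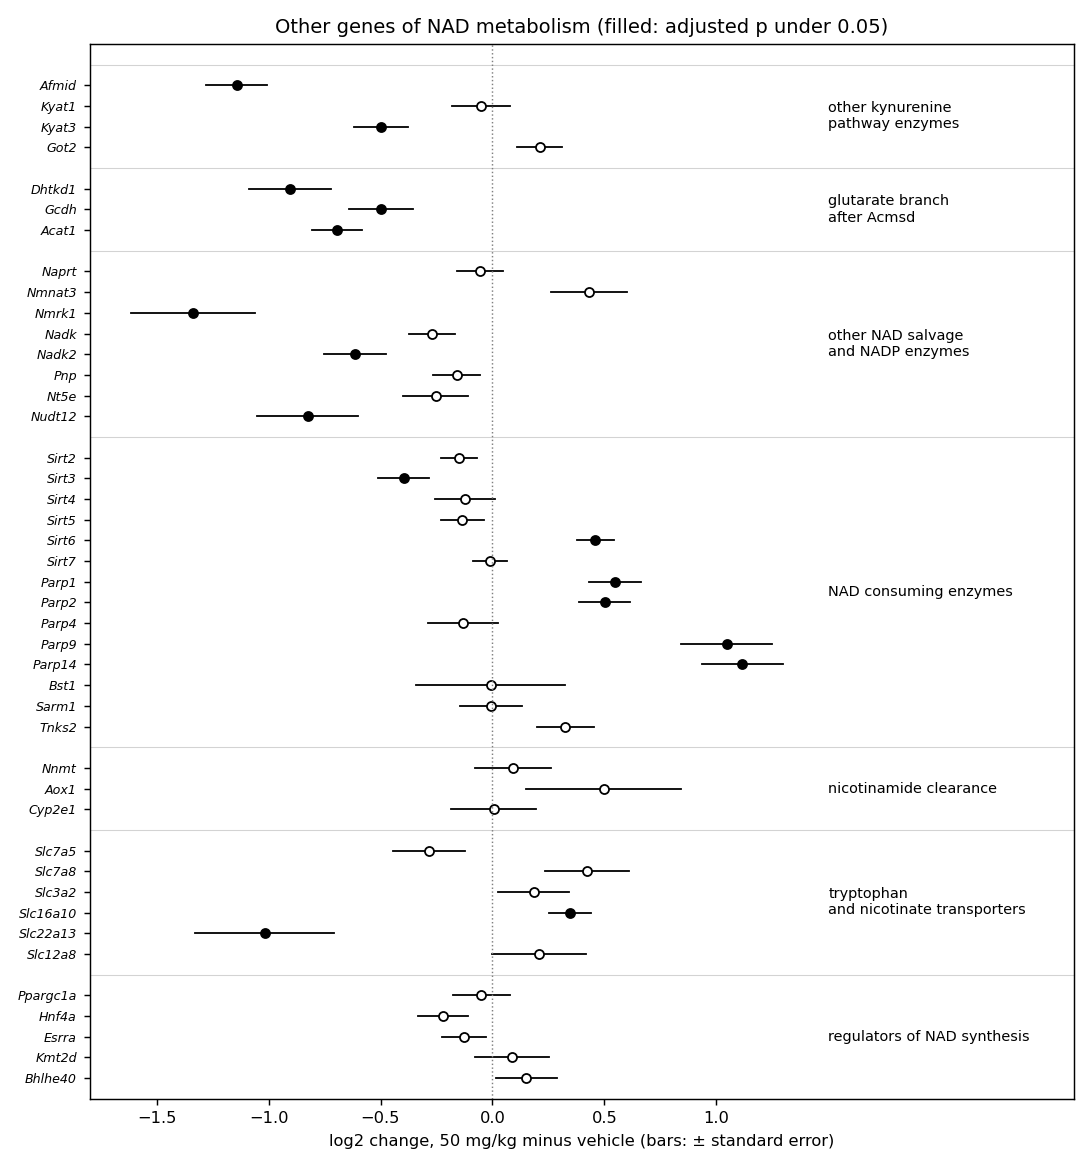
Change in log2 expression between CMS50 and vehicle (horizontal axis, bars are ± SE of the fit with 3 arrays per group) for the tested genes of 7 lists of NAD metabolism (vertical axis). Filled points passed the test: all 3 genes of the glutarate branch fell, and the consuming enzymes had 5 rises and 1 fall.

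The genes whose pattern over the 9 arrays was most like that of a called gene are given as a description, since all arrays share the dose groups. Kmo was most like Rab40b (Pearson r = 0.996) and Zfp706 (r = 0.992), Haao most like Id4 (r = 0.990) and Cth, the cystathionine gamma-lyase of cysteine synthesis (r = 0.987). Acmsd was most like Slc16a13 (r = 0.968) and Timm17a (r = 0.965), and Kynu most like Them7 (r = 0.978) and Paqr7 (r = 0.971). With group means taken out, the same r values were 0.995 and 0.968 for Kmo, 0.978 and 0.981 for Haao, 0.885 and 0.916 for Acmsd and 0.927 and 0.960 for Kynu. These are the top of a ranking of 10337 genes. Between the 9 genes themselves, Aadat and Haao had r = 0.908 over the 9 arrays and 0.861 with group means taken out, and Kmo and Haao 0.904 and 0.699. Kmo and Acmsd had 0.840 over the arrays and 0.261 with group means taken out. Qprt and Nmnat1 ran opposite to each other, at -0.891 and -0.831.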

How the data were processed

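Kidney RNA of 9 rats was measured on Affymetrix rat 3′ expression arrays. The deposited values are log2 intensities that the authors made with RMA in Affymetrix Expression Console, per the submitters' processing notes (their versions are not given in the sources used here). The quantile step of RMA equalises the arrays' distributions, so a shift of all genes cannot be seen. The table had 31099 probe sets and no unused sample column, and 20826 probe sets had exactly 1 gene symbol in the platform annotation. No reads underlie arrays, so the number of arrays limits the precision.

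Each of 14217 genes was represented by its brightest probe set over the 9 arrays, and 10337 genes with a mean log2 value of at least 5 were tested. The 3 groups were fitted together in limma 3.58.1 under R 4.3.3 (lmFit, eBayes), with Benjamini-Hochberg adjustment over all genes and calls at an adjusted p under 0.05. The code was tested on simulated data. The members, lists and tests were chosen with earlier results of these data known. Named genes were all members, every called gene of 7 pathway lists with some uncalled ones beside them, the extremes of marker lists and the 2 genes most like each called member; Alb, Ttr, Plin1, Cfd and Tdo2 were named after their values were seen. Alternatives changed scaling, intensity minimum, probe set rule, variance model, weights, arrays fitted and pairing, and left out each array. Leaving out vehicle replicate 1 with CMS25 replicate 1 was added after the data were seen. Figures used matplotlib 3.10.9 under Python 3.11.15.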

Additional observations from a re-analysis of the deposited data

How the results depend on the processing

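Calls in CMS50 against vehicle depended more on which arrays, and how many, were fitted than on scaling, filter or probe set rule. Leaving out each array in turn, the number of the 9 genes called ran from 1 to 5 against 4, and the number of all genes called from 1687 to 3546 against 3211. With vehicle replicate 1 and CMS25 replicate 1 both left out, 1 of the 9 genes and 1973 of all genes were called. In CMS50 against CMS25 the members called ran from 3 to 5 against 5 over the left-out arrays (also 3 without that pair) and all genes from 1569 to 3518 against 3128. In CMS25 against vehicle 0 genes were called in every alternative run. No clear pairing by replicate number was seen, though 3 arrays per group are too few to exclude one. Deviations of same-numbered arrays correlated between -0.183 and 0.263, and 4 of 9 arrays were closest to an array of their own number. With the replicate block, 5 of the 9 genes were called in CMS50 against vehicle, Aadat being added, and 2865 of all genes.

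Signs turned for some uncalled differences, not all of them near 0. With all 9 arrays Apob was at -0.42 and Krt19 at -0.29 in CMS50 minus vehicle, and Acmsd at 0.30 in CMS25 minus vehicle. In CMS50 minus vehicle, Qprt was at -0.092 when averaged over probe sets and ran from -0.0074 (without vehicle replicate 1) to 0.21 with single arrays or the pair left out. Over the same leave-outs, the pair included, Nampt ran from -0.14 to 0.065, Krt19 from -0.75 to 0.16, Slc12a3 from -0.35 to 0.051, Scnn1b from -0.14 to 0.27 and Apob from -0.94 to 0.51 (the last without vehicle replicate 1, the array with liver RNA). In CMS25 minus vehicle Kmo was at 0.0040 after cyclic loess scaling, and over these leave-outs it ran from -0.15 to 0.059, Acmsd from -0.080 to 0.77 and Nampt from -0.42 to 0.075, where -0.15, 0.77 and -0.42 are the values without the pair. In CMS50 minus CMS25 Nampt ran from -0.13 to 0.28. The cause of these shifts was not tested. Dim probe sets, such as those of Tdo2, Ido1 and the further Nampt probe set, lie near background, which limits what they can show.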
